A study of Saccharomyces cerevisiae with 5 samples.

Results

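The broad start clusters are 1099 stretches of the Saccharomyces cerevisiae genome in which clusters of capped RNA 5′ ends extended over 200 bp or more. They come from cap analysis of gene expression (CAGE), which sequences RNAs from their capped ends and so counts transcripts at the bases where they start. The deposited table holds 27176 distinct clusters. Members were chosen by 3 values: a cluster was taken if the table gave it exactly 1 gene, if its end lay 200 bp or more from its start, and if it reached 10 CPM (cap-tag counts scaled by the authors to a common library total) in at least 1 library. Of 5133 clusters with 1 gene and 10 CPM, these 1099 were broad and 4034 were narrower. Width, gene assignment and highest level thus chose the members, and are described here without a test. A cluster has the same edges in every library, so its width is its full extent and not the spread of starts in a single library.

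The 5 libraries were made from 5 yeast cultures, 1 for each group. Strain BY_DEH+ grew on DEH (4-deoxy-L-erythro-5-hexoseulose uronate, which enzymes release from the seaweed polysaccharide alginate) or on glucose, and strain BY_DEH++ on DEH, glucose or mannitol. Every culture had 10 mL of HC-LN-based medium with 1% (w/v) of the carbon source at 30 °C, after preculture on solid YPGA. The sources used here describe the strains by name alone, and give no further genotype. The optical density (OD600) went from 0.2 to 0.63 in 3 days for BY_DEH+ in DEH, and from 0.05 to 0.91 overnight for BY_DEH+ in glucose. For BY_DEH++ it went from 0.05 to 0.55 in 2 days in DEH, from 0.05 to 0.95 overnight in glucose, and from 0.02 to 0.79 in 1 day in mannitol. The culture stage differed with the medium, and the pair cannot be told apart. Nor can fewer cells of a kind be told apart from less RNA per cell. With 1 library in a group no difference between groups has a replicate check, so there are no p-values, and a cluster is called higher or lower at 4-fold on the log2(CPM + 1) scale.

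The libraries held 9.43 M to 19.9 M reads, as read from the spacing of their lowest values. A level of 10 CPM rested on 94 reads in the shallowest library, with a 95% Poisson interval of 8.06 to 12.2 CPM, against 8.66 to 11.5 CPM in the deepest one. Both intervals are for counting error alone. Values under about 0.5 CPM were listed at 0. The broad clusters held 32.4% to 35.9% of all CPM in the 5 libraries.

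In budding yeast, RNA polymerase II is recruited to a promoter, usually a nucleosome-poor stretch before the gene, and then scans downstream before it starts RNA. Most yeast genes therefore have several start sites rather than a single one. A TATA element, a run of A or T bases and sites of general regulatory factors such as Reb1 and Rap1 are parts of many yeast promoters. Where starts are spread, RNAs of 1 gene differ in their leaders, and an RNA that starts past the first codon cannot encode the whole protein from that codon.

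The stretches just before 6 broad clusters are shown because these clusters lie at the ends of the comparisons below and differ in where they sit. Each is the 200 bases before the upstream edge of the cluster, 5′ to 3′ on the strand of the cluster, from the RefSeq S288C R64 genome. Capitals mark TATAAA and runs of 7 A or T, searched on both strands. The windows of IMD2 (chrVIII:553934-554133, plus strand), ADH4 (chrVII:14724-14923, plus strand), FDH1 (chrXV:1073146-1073345, minus strand) and RPL9A (chrVII:228495-228694, minus strand) lie before clusters that reach the coding start. Those of ADH2 (chrXIII:874025-874224, minus strand) and of the cluster given to MSI1 (chrII:612522-612721, minus strand) lie within coding sequence.
IMD2: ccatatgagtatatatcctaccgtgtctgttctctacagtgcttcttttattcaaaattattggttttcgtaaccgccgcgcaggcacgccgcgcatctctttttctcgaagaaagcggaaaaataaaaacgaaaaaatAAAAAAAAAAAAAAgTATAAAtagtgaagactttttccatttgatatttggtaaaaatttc
ADH4: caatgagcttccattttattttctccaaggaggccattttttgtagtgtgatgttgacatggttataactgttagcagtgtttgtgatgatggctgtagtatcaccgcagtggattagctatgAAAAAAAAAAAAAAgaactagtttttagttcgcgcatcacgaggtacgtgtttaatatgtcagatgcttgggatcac
FDH1: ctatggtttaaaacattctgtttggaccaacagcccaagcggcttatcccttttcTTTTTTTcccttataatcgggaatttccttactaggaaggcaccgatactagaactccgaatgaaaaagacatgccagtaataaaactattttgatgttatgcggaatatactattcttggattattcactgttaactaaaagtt
RPL9A: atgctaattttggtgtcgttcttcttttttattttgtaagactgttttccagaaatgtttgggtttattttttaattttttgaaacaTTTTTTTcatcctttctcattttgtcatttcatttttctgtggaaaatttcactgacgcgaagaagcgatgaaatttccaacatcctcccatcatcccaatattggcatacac
ADH2: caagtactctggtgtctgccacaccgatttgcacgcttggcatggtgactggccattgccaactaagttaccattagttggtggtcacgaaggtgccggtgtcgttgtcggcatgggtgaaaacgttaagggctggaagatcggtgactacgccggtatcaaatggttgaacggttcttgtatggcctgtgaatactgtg
MSI1: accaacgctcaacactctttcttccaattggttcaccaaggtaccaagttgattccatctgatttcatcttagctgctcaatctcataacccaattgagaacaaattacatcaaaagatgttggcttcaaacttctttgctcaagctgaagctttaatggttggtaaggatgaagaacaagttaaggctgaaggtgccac
IMD2 had the only TATAAA among these 6 windows, and its first base lay 46 bases before the edge. The 4 windows before a coding start were 31.5% to 38.0% G or C. The ADH2 window was 51.5% and the MSI1 window 40.0%, and both lacked a run of 7 A or T.

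The median width of the broad clusters was 305 bp, with quartiles at 245.5 and 401 bp and a maximum of 1000 bp. Just inside the limit, at 200 bp, stood the clusters of IRC20, TDA7, AXL1 and SUB2. Just outside it, 1 bp narrower, stood those of CAR2, BET4, GTO3 and CDC42. SUB2, an RNA helicase of splicing and mRNA export, reached 431 CPM, and CDC42, a GTPase of cell polarity, reached 342 CPM with 1 bp less. The widths did not tail off evenly. There were 107 members of 360 to 409 bp, 87 of 410 to 459 bp and 116 of 460 to 509 bp, but 25 of 510 to 559 bp and 18 of 560 to 609 bp. The sources used here do not state how clusters were built, and whether a length limit was set then is not given.

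Broad clusters were found more often among high levels. Of the single-gene clusters, 97 of 1036 (9.36%) were broad at 10 to 30 CPM, 349 of 2093 (16.7%) at 30 to 100 CPM and 340 of 1245 (27.3%) at 100 to 300 CPM. Above that, 185 of 500 (37.0%) were broad at 300 to 1000 CPM, and 128 of 259 (49.4%) at 1000 CPM or more. Across the 5133 clusters, Spearman's rho of width and highest level was 0.40, and within the broad clusters it was 0.12. These are descriptions across clusters, which share the libraries and their depth.

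**Figure D1:**
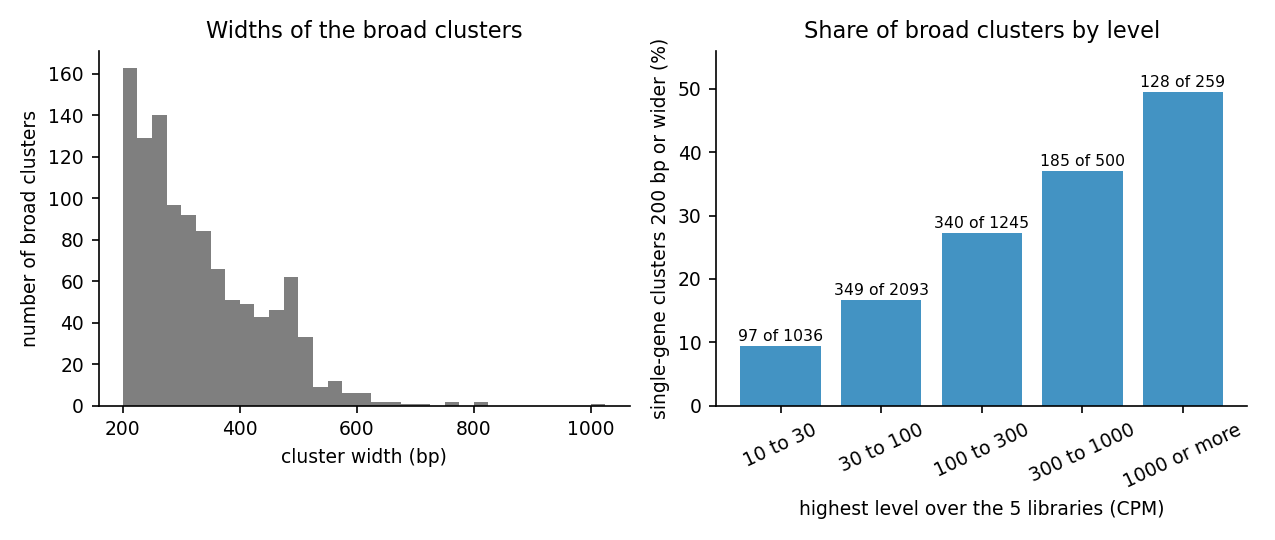
The left panel counts the 1099 broad clusters by width in bp, and the right panel shows the percent of single-gene clusters that were 200 bp or wider in each class of highest CPM over the 5 libraries, with the counts above the bars. The widths drop after 509 bp, and the broad share rises from 9.36% in the lowest class to 49.4% in the highest.

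The cluster of PUG1, a membrane protein of protoporphyrin and heme transport, was the widest at 1000 bp (chrV:558734-559733), from 720 bp before to 279 bp after the first base of the coding sequence. It stood at 48.2 and 13.6 CPM in DEH and glucose in BY_DEH+, beside 19.9, 11.8 and 1.91 CPM in DEH, glucose and mannitol in BY_DEH++. Its level was thus low, and lowest in mannitol. The next 9 by width took different shapes about the start of the gene. The clusters of PDR8, a drug resistance regulator (804 bp), CYB2, the L-lactate dehydrogenase of mitochondria (765 bp), and GAT1, a GATA activator of nitrogen genes (681 bp), lay with 84.8%, 86.3% and 72.4% of their bases in the coding sequence. Those of IRC7, a cysteine lyase (801 bp), PRM8, a pheromone-regulated gene (757 bp), and KSS1, a MAP kinase of filamentous growth (668 bp), ended within 6 bases of the coding start. For these 3 the share in the coding sequence was 0.13% to 1.05%.

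OLE1, the fatty acid desaturase, was the only one of the 10 widest above 1000 CPM. Its cluster of 674 bp ran from 462 bp before to 211 bp after the coding start. It stood at 4192 and 1582 CPM in DEH and glucose in BY_DEH+, beside 4568, 2466 and 518 CPM in DEH, glucose and mannitol in BY_DEH++. It was higher in DEH than in glucose in both strains, by less than 4-fold, and lowest in mannitol, where the log2 ratio to glucose was -2.25.

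The 12 broad clusters with the highest CPM belonged to wall proteins, glycolytic enzymes, alcohol and aldehyde dehydrogenases and a siderophore protein. FIT3, a wall mannoprotein that helps to hold siderophore-bound iron, had the highest single value. Its cluster (497 bp, chrXV:1060679-1061175) stood at 2499 and 26023 CPM in DEH and glucose in BY_DEH+, beside 10096, 32833 and 373 CPM in DEH, glucose and mannitol in BY_DEH++. The glucose libraries were high and the mannitol library was far below the rest. CCW12, a mannoprotein of the cell wall (609 bp), showed another order. It stood at 1817 and 8491 CPM in DEH and glucose in BY_DEH+, beside 6302, 7691 and 19623 CPM in DEH, glucose and mannitol in BY_DEH++, so that mannitol was highest.

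ALD4, the main mitochondrial aldehyde dehydrogenase (515 bp), stood at 17442 and 1552 CPM in DEH and glucose in BY_DEH+, beside 11414, 1172 and 3312 CPM in the 3 BY_DEH++ libraries in the same order with mannitol last. Both DEH libraries lay above all others. PGK1, phosphoglycerate kinase (478 bp), stood at 3651 and 12498 CPM in DEH and glucose in BY_DEH+, beside 4325, 13805 and 5679 CPM in DEH, glucose and mannitol in BY_DEH++. Here both glucose libraries lay above the others. TDH1, CDC19, TDH3 and FBA1, enzymes of glycolysis, SED1, HSP150 and CWP2, structural proteins of the wall, and ADH1, the fermentative alcohol dehydrogenase, made up the rest, with highest values of 6345 CPM for FBA1 to 17008 CPM for TDH1.

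All 12 spanned the coding start. The clusters began 74 bp (SED1) to 369 bp (CCW12) before the first coding base. They ended 30 bp (ADH1) to 421 bp (SED1) after it. In 10 of them, all but ADH1 and CCW12, most of the bases lay in the coding sequence, from 64.2% in HSP150 to 85.1% in SED1. The table gives a cluster's edges and its sum, so where within it the tags lay was not analysed here.

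**Figure D2:**
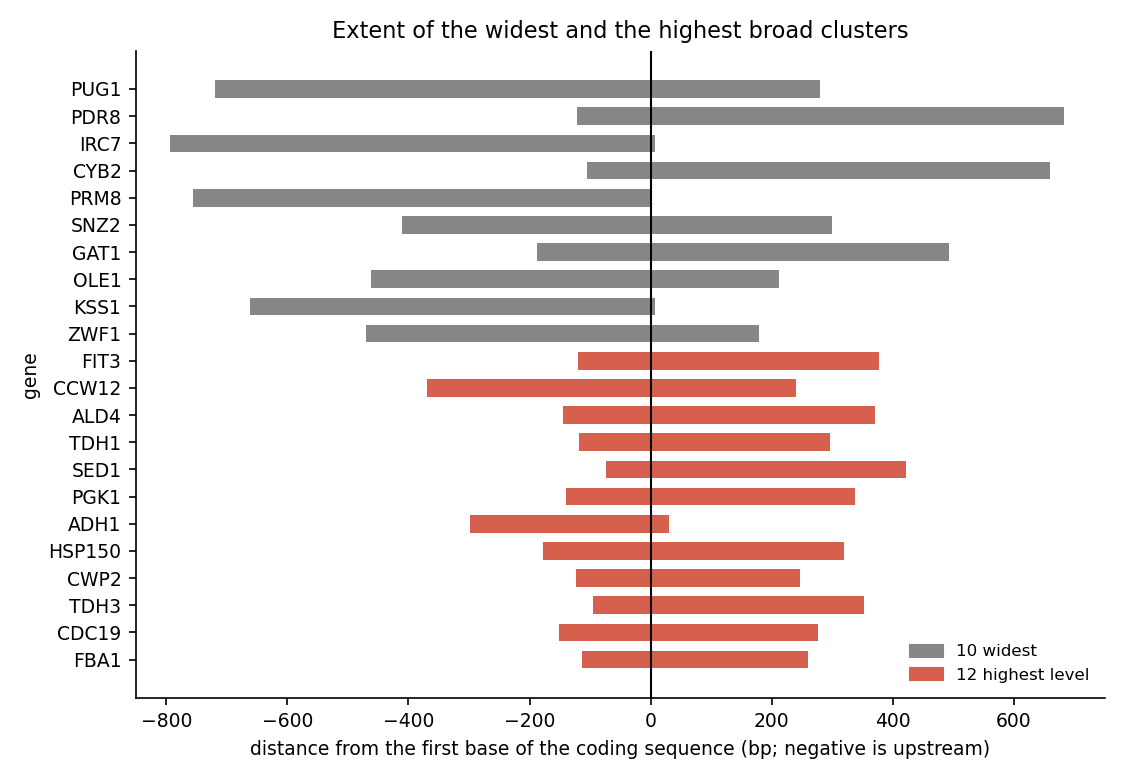
Bars give the extent of the 10 widest (grey) and the 12 highest (red) broad clusters in bp from the first base of the coding sequence of their gene, marked by the line at 0. All 12 highest clusters cross that line, while IRC7, PRM8 and KSS1 lie almost wholly before it and PDR8 and CYB2 mostly after it.

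Over all members, 976 of 1099 (88.8%) lay at the gene they were given to: 711 over the coding start, 217 upstream of it, 46 inside the coding sequence and 2 over its end. Of these 976, 759 (77.8%) reached into the coding sequence, and 357 (36.6%) reached 100 bases or more past its first base. Of the 3606 narrower clusters at their own gene, 2319 (64.3%) reached in, and 272 (7.54%) by 100 bases or more. A wider cluster reaches farther by its width alone. The median broad cluster ran from 220 bp before to 54.5 bp after the coding start, and the median narrower cluster from 89 bp before to 12 bp after.

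Introns accounted for part of the width. In 69 members some of the bases were intron bases, and 61 spanned a whole intron, 31 of them in genes of ribosomal proteins. Among the narrower clusters 20 spanned a whole intron. A cluster under 200 bp cannot span an intron of 200 bp or more, so the width rule bears on this contrast. Without intron bases, 8 of the 69 were still 200 bp wide. RPL39, a protein of the large ribosomal subunit, had a cluster of 450 bp from 51 bp before to 398 bp after its coding start, over its intron. It stood at 240 and 51.6 CPM in DEH and glucose in BY_DEH+, beside 267, 40.0 and 2245 CPM in DEH, glucose and mannitol in BY_DEH++, with mannitol far above the rest. Of 78 ribosomal protein genes with an intron, 32 had a broad main cluster, and 1 of these 32 was 200 bp wide without intron bases. Of 38 without an intron, 17 had a broad main cluster.

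Pooled over widths, the genes of broad clusters had longer stretches before them than those of narrower ones. The distance from the coding start to the nearest coding sequence upstream had a median of 653 bp for broad and 446 bp for narrower clusters, counted at their own gene. It was longer for broad clusters in each class of level, from 609.5 against 387 bp at 30 to 100 CPM to 720.5 against 683.5 bp at 1000 CPM or more. By width the median distance did not rise evenly. It was 640 bp for clusters under 50 bp and 383 bp from 50 bp to under 100 bp. From 100 bp to under 150 bp it was 436 bp, and from 150 bp to under 200 bp 549.5 bp. The narrowest clusters thus lay above the broad ones of 200 bp to under 300 bp (601 bp) and of 300 bp to under 400 bp (634.5 bp). The neighbour upstream was on the other strand, so that the genes diverge, for 600 (61.5%) of the broad and 1959 (54.3%) of the narrower clusters. The diverging share was 58.0% from 150 bp to under 200 bp and 57.3% from 200 bp to under 300 bp, so it had no step at 200 bp. It was 60.9% from 300 bp to under 400 bp. Among the broad clusters of 400 bp or more that share was 70.0%, and the median distance 732 bp. Clusters that share a promoter region are not independent, and no test was made of these shares.

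In the 200 bases before the upstream edge, TATAAA on either strand was found for 309 (28.1%) of the broad and 1375 (34.1%) of the narrower clusters. The share was lower for broad clusters in each of the 5 level classes, from 27.8% against 33.1% at 10 to 30 CPM to 25.8% against 33.6% at 1000 CPM or more. A run of 7 A or T was found for 42.9% and 46.1%, the Reb1 letters TTACCCG for 5.82% and 9.64%, and the Rap1 letters ACCCATACA for 0.64% and 0.62%. For TTACCCG the order turned at 300 to 1000 CPM, with 10.3% of the broad and 9.84% of the narrower. In the other level classes its share was lower for broad clusters. Clusters under 50 bp had it for 6.18%. The letters AGGGG of the stress response element were found for 225 (20.5%) of the broad and 615 (15.2%) of the narrower. Shares also changed with width below the 200 bp limit. AGGGG was found for 10.0% of clusters under 50 bp and 12.4% from 50 bp to under 100 bp. It was found for 17.0% from 100 bp to under 150 bp, and 20.5% from 150 bp to under 200 bp. TATAAA was found for 34.7%, 35.6%, 34.2% and 29.5% in the same order. The pooled contrasts of AGGGG and TATAAA thus do not mark a step at 200 bp. For AGGGG the order was not the same at every level: it was found for 17.5% of the broad and 13.5% of the narrower clusters at 30 to 100 CPM, for 23.8% and 26.7% at 300 to 1000 CPM, and for 25.8% and 19.1% at 1000 CPM or more. The order also depended on where the window lay. In 200 bases centred on the middle of the cluster, TATAAA was found for 29.9% of the broad and 29.3% of the narrower clusters, a run of 7 A or T for 34.5% and 30.2%, and TTACCCG for 2.82% and 0.59%, so that the order of all 3 turned. AGGGG was found there for 19.0% and 14.2%, in the same order as before the edge. The window before the edge lies farther from the coding start for broad clusters, whose upstream edge is farther out. A match of letters is a description and not a bound site. The median GC content of the clusters themselves was 37.4% for broad and 37.1% for narrower ones.

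Gene lists differed in how often the highest cluster of a gene at its own place (its main cluster) was broad. Over all 4108 genes measured it was broad for 912 (22.2%). Among genes of glycolysis it was broad for 14 of 16 (87.5%), with a median width of 384 bp. The shares were 13 of 19 for iron uptake, 5 of 8 for histones, 8 of 13 for fermentation and 17 of 29 for cell wall mannoproteins. Lists at the other end were ribosome biogenesis with 4 of 41, heat shock proteins and chaperones with 3 of 27, translation factors with 3 of 27 and the proteasome with 4 of 29.

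The lists did not stand in the same order by median level as by broad share, and the reason was not tested. The median highest level of a main cluster was 297 CPM for iron uptake and 498 CPM for heat shock proteins and chaperones, whose broad shares were 68.4% and 11.1%. Among genes whose main cluster reached 1000 CPM, 11 of 13 were broad in glycolysis, 10 of 13 in the cell wall list, 40 of 83 among ribosomal proteins and 2 of 7 among translation factors, against 124 of 247 (50.2%) over all genes. The counts were 4 of 4 for iron uptake, 2 of 7 for heat shock proteins and chaperones and 2 of 8 for amino acid synthesis. HHT2, a histone H3 gene, is an example of a broad cluster near the limit, at 247 bp, with 989 and 3203 CPM in DEH and glucose in BY_DEH+, and 1583, 2512 and 1017 CPM in DEH, glucose and mannitol in BY_DEH++. The glucose libraries were the highest.

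**Figure D3:**
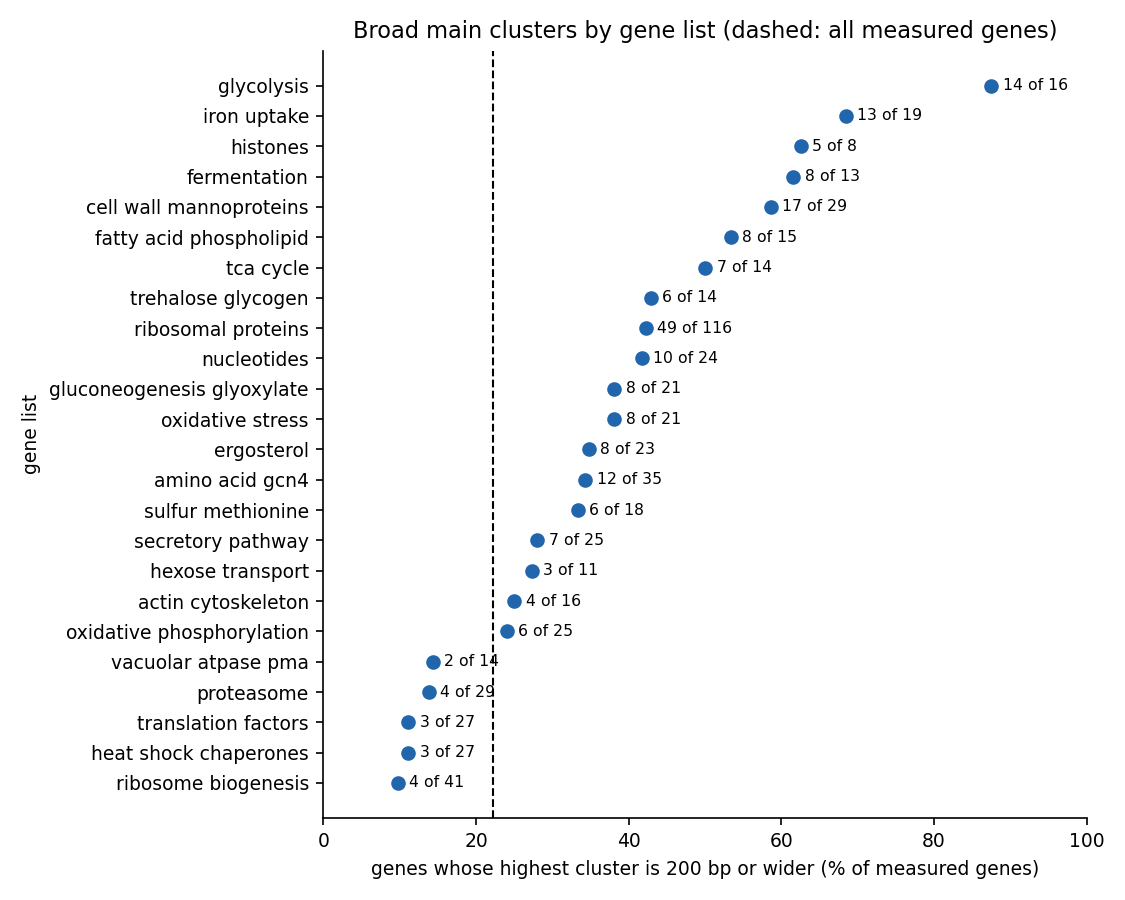
Points give the percent of measured genes of each list whose highest cluster was 200 bp or wider, with counts beside them, and the dashed line gives the 22.2% of all 4108 genes. Glycolysis stands highest at 87.5%, and ribosome biogenesis lowest with 4 of 41.

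The levels of the broad clusters were then compared between libraries. For DEH against glucose in BY_DEH+, 59 members were 4-fold or more higher in DEH (5.37%), and 107 lower (9.74%). Of all 6875 clusters of 10 CPM or more, 4.83% were higher and 8.42% lower, so the members' shares lay near this background. In BY_DEH++, 74 members were higher (6.73%) and 61 lower (5.55%), beside 4.1% and 6.84% of all clusters. Of the narrower single-gene clusters, 3.57% were higher and 4.64% lower. The median log2 fold of the members was -0.0040 in BY_DEH+ and -0.21 in BY_DEH++, and that of all clusters was 0.05 and -0.17.

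In both strains 35 broad clusters were higher in DEH (3.18%, beside 2.04% of all clusters) and 44 were lower (4.00%, beside 4.35%). Of the narrower single-gene clusters, 1.78% were higher and 2.70% lower in both strains. Among the 222 members past 4-fold in at least 1 strain, the sign of the ratio matched for 204. The same count was not made over all clusters, so it has no background here and describes the members only. PCK1, which makes phosphoenolpyruvate in gluconeogenesis, had a broad cluster upstream of the coding start (318 bp, chrXI:630771-631088). It stood at 2129 and 46.6 CPM in DEH and glucose in BY_DEH+, beside 1977, 36.4 and 257 CPM in DEH, glucose and mannitol in BY_DEH++. The DEH libraries were highest in both strains and mannitol lay between.

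IDP2, a cytosolic isocitrate dehydrogenase, JEN1, the lactate and pyruvate transporter, ICL1, isocitrate lyase of the glyoxylate cycle, and MDH2, the cytosolic malate dehydrogenase, were also higher in DEH in both strains. IDP2 stood at 840 and 25.5 CPM in DEH and glucose in BY_DEH+, beside 500 and 22.8 CPM in BY_DEH++. It was lowest in mannitol. ICL1 stood at 706 and 98.5 CPM in BY_DEH+, beside 935 and 91.0 CPM in BY_DEH++, with 40.6 CPM in mannitol. For both genes mannitol lay below all other libraries. ALD6, the cytosolic acetaldehyde dehydrogenase, was 3.33 and 3.70 higher on the log2 scale in the 2 strains, and CAT2, carnitine acetyltransferase, 3.00 and 2.22.

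Outside central carbon use, ATO3, an ammonium exporter of the plasma membrane, had a cluster of 449 bp over its coding start. It stood at 2917 and 35.0 CPM in DEH and glucose in BY_DEH+, beside 1751, 41.4 and 113 CPM in DEH, glucose and mannitol in BY_DEH++. FDH1, formate dehydrogenase, with 233 bp, stood at 51.3 and 0.85 CPM in BY_DEH+, with 90.0 CPM in the DEH library of BY_DEH++ and a listed 0 in its glucose library. GDH2, the glutamate dehydrogenase that breaks glutamate down, was 2.44 and 2.12 higher on the log2 scale. Among the 35 were 7 clusters of ribosomal protein genes, RPL7B, RPS17B, RPS0B, RPL19A, RPL39, RPS4A and RPL26B.

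Among the 44 lower in both strains were transporters and reductases of metals and sugars. HXT4, a glucose transporter (361 bp, chrVIII:288805-289165), stood at 0.56 and 186 CPM in DEH and glucose in BY_DEH+, beside 0.50 and 283 CPM in BY_DEH++. In mannitol it was listed at 0, so this cluster was seen in glucose almost alone. FRE2 and FRE3, ferric reductases, had log2 ratios of DEH to glucose of -4.77 and -3.99 in BY_DEH+, with -5.13 and -5.71 in BY_DEH++. FET4, a low-affinity iron transporter with a cluster of 563 bp, stood at 23.5 and 213 CPM in BY_DEH+, beside 12.9 and 270 CPM in BY_DEH++, with 8.22 CPM in mannitol.

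IMD2, an IMP dehydrogenase of guanine nucleotide synthesis known for a choice between upstream and downstream start sites, was also lower. Its cluster of 292 bp lies behind the TATAAA shown above and ran from 262 bp before to 29 bp after the coding start. It stood at 3.74 and 647 CPM in DEH and glucose in BY_DEH+, beside 14.9, 266 and 235 CPM in DEH, glucose and mannitol in BY_DEH++. The DEH libraries were the low ones. HIS4 of histidine synthesis, GCV2 of glycine cleavage, ADH5, an alcohol dehydrogenase, and MSN4, a stress activator, were 4-fold or more lower in DEH in both strains as well.

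**Figure D4:**
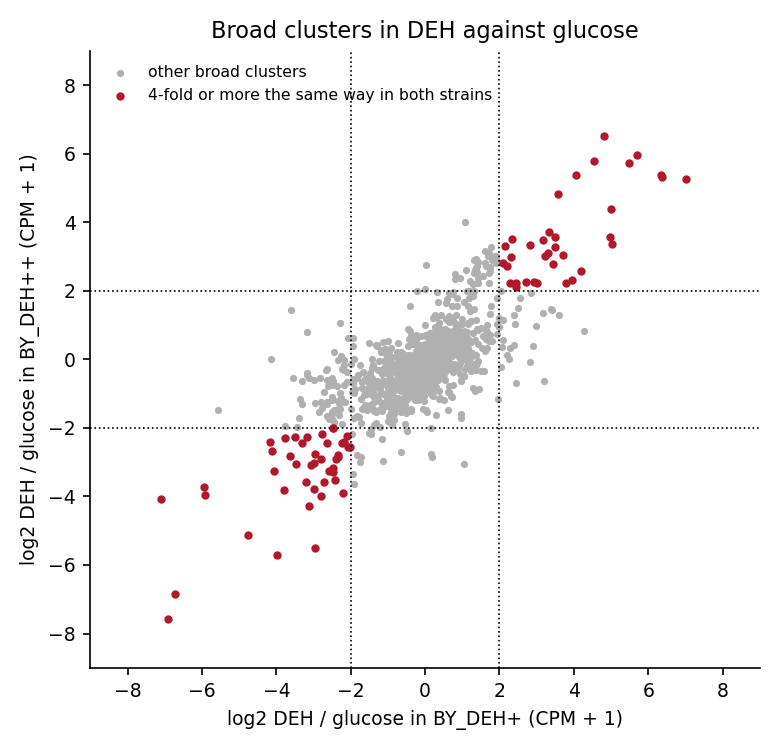
Each point is 1 of the 1099 broad clusters, with its log2 ratio of DEH to glucose (CPM + 1) in BY_DEH+ on the x axis and in BY_DEH++ on the y axis, and dotted lines at 4-fold. The 79 red points, 35 higher and 44 lower, passed 4-fold the same way in both strains.

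Lists describe the same folds by role. The 10 broad clusters of gluconeogenesis and glyoxylate genes came from 8 genes, and clusters of the same gene are not independent. Of the 10, 7 were 4-fold higher in DEH in each strain and 1 was lower, with median log2 folds of 3.09 and 3.41. Over all 976 broad clusters at their own gene, the medians were 0.01 and -0.18, with 52 higher and 95 lower in BY_DEH+, and 68 higher and 51 lower in BY_DEH++. The lower one of the 10 was the second PCK1 cluster, inside the coding sequence. Of 16 iron uptake clusters, from 14 genes, 8 were lower and 1 higher in BY_DEH+, and 3 lower and none higher in BY_DEH++. Of 18 cell wall clusters, from 17 genes, 7 were lower in BY_DEH+ and 3 in BY_DEH++, with none higher in either. The 19 glycolysis clusters, from 14 genes, had medians of -1.22 and -0.76, with 3 and 1 lower and none higher. Of 51 ribosomal protein clusters, 9 in BY_DEH+ and 38 in BY_DEH++ were higher, none was lower, and the medians were 1.42 and 2.58.

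In mannitol against glucose in BY_DEH++, 67 broad clusters were 4-fold higher (6.10%) and 177 lower (16.1%), beside 6.47% and 13% of all clusters. Of the narrower single-gene clusters, 5.48% were higher and 8.73% lower. The median of the broad clusters was -0.68, beside -0.56 for all clusters and -0.49 for the narrower ones. Scaling by the median of ratios moved the median of all clusters by 0.50. It gave 97 broad clusters higher and 114 lower, so this balance depended on the scaling. Of 51 ribosomal protein clusters 44 were higher and none lower, with a median of 3.25. RPL43A, of the large subunit, stood at 69.8 CPM in glucose and 3226 CPM in mannitol, and RPL9A, whose upstream window is shown above, at 41.4 and 2019 CPM. ZPS1, a gene known to respond to zinc starvation, went the other way, from 2326 CPM in glucose to 5.16 CPM in mannitol. Of 16 iron uptake clusters 13 were lower and none higher.

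PHO12, an acid phosphatase, stood at 380 CPM in glucose and was listed at 0 in mannitol, but its middle 50 bases recur in the genome, so reads of a near-identical copy cannot be set apart. The same holds for 27 members (2.46%), against 38 (0.94%) of the narrower clusters. Among those named by rule were DSF1, IMA3 and clusters given to FLO5, IOC4, OMS1, SEC7 and TAR1.

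DEH and mannitol were also compared directly in BY_DEH++. There 118 broad clusters were higher in DEH (10.7%) and 37 lower (3.37%), beside 6.88% and 5.5% of all clusters. With median-of-ratios scaling these were 91 and 53. Of the narrower single-gene clusters, 5.08% were higher and 4.31% lower without that scaling. HPF1, a wall mannoprotein, had 1814 CPM in DEH and, in mannitol, 16.8 CPM, the lowest of the 5 libraries. Methionine genes lay on the other side. Of 7 broad clusters of sulfur and methionine genes, 4 were lower in DEH than in mannitol and 1 higher, with a median of -2.71, against 0.41 over all members at their own gene. MET6, methionine synthase, had 347 CPM in DEH and, in mannitol, 2280 CPM. The comparisons of DEH and of mannitol with glucose share the glucose library, and that of DEH with mannitol shares both others.

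Between the strains in DEH, 31 broad clusters were higher in BY_DEH++ (2.82%) and 32 lower (2.91%), beside 1.79% and 3.87% of all clusters. For the narrower single-gene clusters the shares were 1.54% and 3.02%. Median-of-ratios scaling gave 42 and 22 broad clusters. PHO5, the main acid phosphatase, stood at 5.89 CPM in BY_DEH+ and 235 CPM in BY_DEH++. HSP12, a small membrane heat shock protein, stood at 5172 and 391 CPM. In glucose the strains differed less: 2 broad clusters were higher in BY_DEH++, ZPS1 and ADH4, and 5 were lower, IMA3, STP3, IOC4, HSP12 and CIN1. These shares were 0.18% and 0.45%, beside 0.465% and 0.975% of all clusters and 0.496% and 0.719% of the narrower single-gene ones. HSP12 stood at 1694 CPM in glucose in BY_DEH+ and 330 CPM in BY_DEH++, so it was lower in BY_DEH++ in both media.

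Most genes with a broad main cluster had little CPM in other clusters given to them alone. A gene's CPM was summed here over its single-gene clusters on the same strand. Clusters given to several genes or to none were left out of that sum. The main cluster held a median of 98.9% of the gene's CPM in 912 genes, and 99.4% in the 3196 genes with a narrower main cluster. At least 2 clusters of 10 CPM were found for 144 (15.8%) of the first and 263 (8.23%) of the second. In these genes, the share of the main cluster was compared between libraries where the gene reached 10 CPM in both. For DEH against glucose it moved by 20 points or more in 22 of 140 genes in BY_DEH+ (15.7%, beside 25.3% of all genes so compared), and in 16 of 141 in BY_DEH++ (11.3%, beside 15.2%). It moved in 23 of 138 for mannitol against glucose (16.7%, beside 19.8%), and in 14 of 138 for DEH against mannitol (10.1%, beside 16.6%). Between the strains it moved in 9 of 139 in DEH (6.47%, beside 14%) and in 4 of 143 in glucose (2.80%, beside 3.7%).

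GDH3, a glutamate dehydrogenase that makes glutamate, had the largest such move, between 2 broad clusters at its coding start. The upstream one (481 bp, chrI:31102-31582, ending 15 bp into the coding sequence) stood at 292 and 8.06 CPM in DEH and glucose in BY_DEH+, beside 187, 17.3 and 23.3 CPM in DEH, glucose and mannitol in BY_DEH++. The downstream one (495 bp, chrI:31517-32011, from 50 bp before to 444 bp after the coding start) stood at 22.1 and 193 CPM in BY_DEH+, beside 28.2, 244 and 8.22 CPM in BY_DEH++ in the same order. The pair thus exchanged places between DEH and glucose in both strains. The upstream cluster held 92.5% and 86.5% of the gene's CPM in the DEH libraries, 3.86% and 6.40% in the glucose libraries and 73.9% in mannitol. Their extents overlap from -50 to 15 bp of the first coding base, so the pair is not wholly separate. In all, 606 members (55.1%) overlapped another cluster on their strand. The summed level of the overlapping clusters had a median of 0.923% of the member's own, and was above 10% for 12 members.

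SHH4, a mitochondrial homologue of a succinate dehydrogenase subunit, had a broad cluster of 242 bp well before the coding start and a narrower one of 167 bp over it. The broad one stood at 4.67 and 63.3 CPM in DEH and glucose in BY_DEH+, and the narrower one at 34.4 and 1.17 CPM. In BY_DEH++ the broad one had 10.7 CPM in DEH and, in glucose, 55.2 CPM, and the narrower one at 2.06 CPM and at 0. The move of 86.2 points in BY_DEH+ was therefore not seen in BY_DEH++, where the broad share was 83.8% in DEH and 100% in glucose. ADH4, an alcohol dehydrogenase, had 2 broad clusters before and at its coding start, and the one at the start stood at 132 CPM in glucose in BY_DEH++ but at 1.40 to 17.7 CPM in the other 4 libraries. ECM18, MFM1 and AXL2 were the others with the largest moves.

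**Figure D5:**
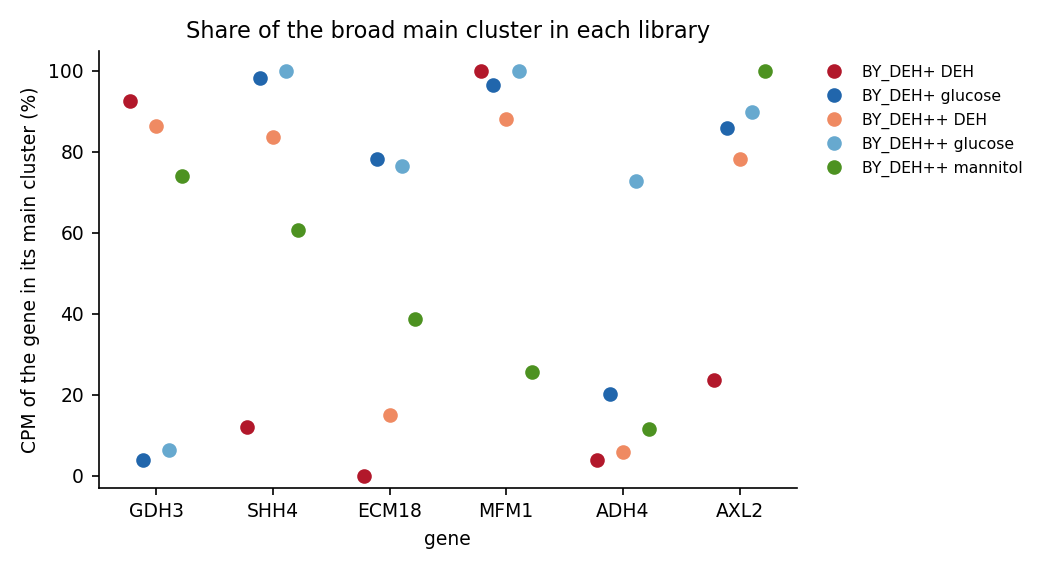
Points give the percent of a gene's CPM in its broad main cluster in each of the 5 libraries for the 6 genes with the largest moves. For GDH3 the DEH libraries stand at 92.5% and 86.5% and the glucose libraries at 3.86% and 6.40%.

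A few genes held 3 members. ADH1 had its main cluster over the coding start (330 bp, chrXV:160564-160893), with 6617 and 5945 CPM in DEH and glucose in BY_DEH+, and 6785, 3986 and 12510 CPM in DEH, glucose and mannitol in BY_DEH++. A second one (304 bp, chrXV:161404-161707) lay upstream, from -1113 to -810 bp of the first coding base, where yeast is known to make a non-coding RNA when zinc is low. It stood at 613 and 298.9 CPM in DEH and glucose in BY_DEH+, beside 425, 593 and 8.32 CPM in DEH, glucose and mannitol in BY_DEH++. The main cluster was highest in the library where the upstream one was lowest. The third, inside the coding sequence, stood at 62.7 CPM in mannitol and was listed at 0 to 2.76 CPM elsewhere.

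Of the 46 members inside a coding sequence, 13 were the main cluster of their gene and 33 lay behind a higher one. In 19 of the 33 that higher cluster reached 1000 CPM, and the inside one had a median of 0.827% of its summed level, with 3.39% as the most. CDC19 is an example, with 14.3 and 94.5 CPM inside against 1017 and 4578 CPM at the start, in DEH and glucose in BY_DEH+. Others did not follow their main cluster. The inside cluster of PCK1 (234 bp) stood at 2.24 and 29.0 CPM in DEH and glucose in BY_DEH+, beside 1.86 and 32.9 CPM in BY_DEH++, with 0 listed in mannitol. Between DEH and glucose it was high where the upstream PCK1 cluster was low. VHR1, a regulator of biotin genes, had an inside cluster with 60.9 CPM in glucose in BY_DEH+ and 41.8 CPM in BY_DEH++, and 0 to 2.26 CPM in the other 3 libraries.

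UGA2, succinate semialdehyde dehydrogenase of GABA use, had its main cluster inside the coding sequence (407 bp, chrII:247783-248189, 773 to 1179 bp past the coding start). It stood at 0.56 and 165 CPM in DEH and glucose in BY_DEH+, while the BY_DEH++ libraries had a listed 0 in DEH, 113 CPM in glucose and 19.9 CPM in mannitol. It was a cluster of the glucose libraries, with mannitol between. In ADH2, the alcohol dehydrogenase for ethanol use, the inside cluster of 281 bp stood at 82.0 and 39.1 CPM in the 2 DEH libraries and was listed at 0 in the other 3. Its main cluster, of 107 bp, is not broad and reached 11756 CPM.

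The remaining 123 members (11.2%, against 10.6% of the narrower clusters) were not placed at the gene the table gave them: 71 were on the opposite strand, 50 elsewhere and 2 had a gene name not matched. The 2 unmatched names were ARG5,6 and DUR1,2, and these clusters lay before ARG56 and DUR12, other spellings of the same names, so they do lie at their own gene. On their own strand, 84 of the 123, these 2 included, lay before a coding start by at most 1000 bp, 28 within a coding sequence, and 11 near none. The cluster given to SPO20 (chrXIII:310162-310529) lay over the first part of PEX9, which encodes an import receptor of peroxisomes, and stood at 128 and 37.1 CPM in the 2 DEH libraries and at 0 in the other 3. That given to CDA1 (chrXII:747152-747445) lay before DPA10, with 1287 and 23.7 CPM in DEH and glucose in BY_DEH+, and 865, 13.0 and 6.40 CPM in DEH, glucose and mannitol in BY_DEH++. Both were DEH clusters in each strain. Clusters away from their gene are named here by the deposited gene, and their values say nothing certain of it. A cluster counted at its own gene can also lie in another. That of MSI1, from -639 to -437 bp of the MSI1 coding start, lay within PGI1, phosphoglucose isomerase, and had 24.4 CPM in mannitol and a listed 0 in the other 4 libraries.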

How the data were processed

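Per the labels' protocols, acid phenol-chloroform gave the total RNA, a DNAFORM kit for cap trapping the libraries, and a NextSeq500 the reads. BWA, HISAT2 and the build mm9 are listed, without role or version, per the submitters' processing notes. Although mm9 is a mouse genome, the clusters in the deposited table carry the sequence names of S288C R64, the yeast build used here. How clusters were built and given to genes is not given in the sources used here. The deposited values are normalised signal per cluster, scaled by the authors to CPM, as named in the deposited table. The design assumed CPM, and the unit was recorded as signal because clusters of several genes are repeated in the 29960 lines. Each of the 27176 clusters was used once.

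The deposited starts count from 0, so 1 base was added to each. Of 204 clusters of 1 base, 65.7% then began on a purine after a pyrimidine, and 7.84% without the shift. All values under 3 CPM were whole multiples of the CPM of 1 read within 0.15 of a read, which gave the depth. A cluster was at its own gene when it lay on the gene's strand, with its downstream edge at most 1000 bp before the coding start and its upstream edge before the coding end. Gene names were matched in the R64 annotation for 5128 of 5133 clusters. Folds were log2 ratios of CPM + 1, called at 4-fold, in 6 comparisons. The calling step was run on simulated data with counting error alone, where planted changes exceeded 4-fold and expected levels lay above 0. That run did not try calls near 4-fold or from a listed 0, so it is no support for the calls reported here. Without replicates, no test of a difference between groups was run. The main cluster of a gene was the one with the highest CPM at its own gene.

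Genes named were the 10 widest, the 12 highest, the 5 with the largest folds in each direction of each comparison, those 4-fold the same way in both strains, up to 3 of each gene list, 4 on each side of the width limit, 4 with the largest share inside the coding sequence, 4 farthest upstream and 6 with the largest share moves. Others were chosen after their values were seen. The members and the 24 gene lists (from textbook knowledge) were chosen with earlier results of these data known. Alternatives were a pseudocount of 10 CPM, median-of-ratios scaling, width limits of 250 and 150 bp, a filter of 20 CPM or none, exactly 1 protein-coding gene, and, for motifs, a window of 200 bases centred on the cluster. Not counting intron bases in the width was added after the data were seen. Python 3.11.15, pandas 2.3.3, numpy 2.4.6, scipy 1.17.1 and matplotlib 3.10.9 were used.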

Additional observations from a re-analysis of the deposited data

How the results depend on the processing

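No paired analysis was possible because each group has 1 library, so the groups share a single replicate number. For the same reason no replicate could be left out. An additive fit of strain and medium was planned for read counts if these could be recovered. Because the unit was recorded as signal, read counts per cluster were not formed for it. The spacing of the lowest values was used only for the depths and for the reads at 10 CPM. The fit was therefore not run, and none was run on log values. The counts rest on single libraries. With a pseudocount of 10 CPM the clusters lower in DEH than in glucose were 70 (107 as reported) in BY_DEH+, and 30 (61 as reported) in BY_DEH++. With that pseudocount, 94 were lower in mannitol than in glucose (median log2 fold -0.55), 63 were higher and 22 lower in DEH than in mannitol, and 13 and 2 were lower in BY_DEH++ than in BY_DEH+, in DEH and in glucose. Median-of-ratios scaling gave 114 lower in mannitol than in glucose. It gave medians of -0.050 in BY_DEH++ where DEH was set against glucose, -0.18 where mannitol was, 0.063 for DEH against mannitol, and 0.023 between the strains in DEH, where the sign reversed. The cause was not tested. A width limit of 250 bp left 807 members, so counts fall with the size of the set. Of these 807, 39 were higher in DEH in BY_DEH+, and their median over all 807 was 0.019, a change of sign. That limit left 14 lower and 1 higher in BY_DEH++ than in BY_DEH+, in DEH and in glucose respectively. With the window centred on the cluster, TATAAA was found for 29.9% of the broad clusters in place of 28.1%, and its order against the narrower clusters turned. A limit of 150 bp gave 1713 broad clusters. Without intron bases, 1038 remained. In all, 61 of the alternative values kept their direction and stayed within 1.5 times a count, 0.1 of a log2 median, 1 point of GC or the 95% binomial interval of a share, 16 moved farther and 2 reversed.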
